A study of Mus musculus with 2 samples.

Results

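The cells described here are mouse induced pluripotent stem cells (iPSCs) whose messenger RNA held an unusually large share of transcripts from chromosome 8. They were found by the share of a cell's unique molecular identifiers (UMIs, each the tag of 1 captured RNA molecule) that fell on 45 genes of chromosome 8, divided by the median of that share over wild-type cells. In the knockout library the 35% of cells with the highest ratio were taken, 177 of 506 usable cells, and were compared with the 35% with the lowest ratio, another 177. In the wild-type library 68 of 727 usable cells lay more than 25% above that median, and these were compared with 462 cells between 0.85 and 1.1. The 4 sets are called high and low cells of each library below, and a further 152 knockout and 197 wild-type cells fell in neither. DNA was not measured, so the name refers to RNA and not to a counted chromosome.

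The study compared iPSCs in which both alleles of Srf, the gene of serum response factor, were deleted (SRFΔ/Δ, here knockout) with iPSCs that kept both floxed alleles (SRFf/f, here wild type). The medium of both held serum, and the labels name no further treatment, clone or passage. Each genotype was 1 droplet library made on the Chromium platform, with 1073 knockout and 954 wild-type barcodes (2027 in all), 22277996 and 24005849 UMIs, and medians of 20605 and 25907 UMIs per barcode. Of all barcodes, 2 occurred in both libraries. Srf had 1 UMI in the knockout high cells and 1 in the knockout low cells, against 19 and 115 in the wild-type high and low cells, which fits the labels.

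Mouse pluripotent stem cells in culture can gain a chromosome, and gain of chromosome 8 is among the changes most often reported for them. Transcripts of a gained chromosome usually increase about in step with its copies, which is called an effect in cis. Differences in genes on the other chromosomes are called effects in trans, and in aneuploid cells they have often been described for protein folding, protein degradation, stress and metabolic genes.

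Because both sets of cells of a comparison came from 1 library, nothing could be tested over replicates, and no p is printed. UMIs were summed over the cells of a set and scaled to counts per 1000000 (CPM), and the log2 ratio of high over low cells was taken. Exact 95% intervals are given for single ratios, and they cover counting error only, not differences between cultures or clones. A gene counted as past the fold when its log2 ratio was at least 0.3 or at most -0.3, which is a change of 1.23-fold. The comparison took the 2286 genes whose mean over the 4 sets reached 50 CPM, of which 34 were among the 45 selecting genes, 118 were other genes of chromosome 8 and 2134 lay elsewhere.

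The other genes of chromosome 8, which took no part in the choice of cells, separated the cells more sharply than the selecting genes did. Their summed share, again over the wild-type median, had a median of 1.32 in the knockout high cells and 0.952 in the knockout low cells. It was 1.35 in the wild-type high cells and 0.994 in the wild-type low cells. In the knockout library 154 cells lay between 0.9 and 1.0 of this ratio, 23 between 1.1 and 1.2, and 111 between 1.3 and 1.4, so the cells lay in 2 groups with few between. In the wild-type library the same intervals held 324, 44 and 39 cells. Between 1.2 and 1.3 lay 21 wild-type cells, so the count there also rose again, to the 39 between 1.3 and 1.4. This ratio was more than 15% above the wild-type median in 174 of 177 knockout high cells and in 3 of 177 knockout low cells. The wild-type sets were less clean, with 56 of 68 high cells (82.4%) and 26 of 462 low cells above that limit. The 12 remaining wild-type high cells had a raised share of the selecting genes without a raised share of the rest of the chromosome. Among all usable cells the limit was passed by 244 of 506 in the knockout (48.2%) and by 98 of 727 in the wild type (13.5%). Across cells the 2 ratios had a Pearson correlation of 0.72 in the knockout (506 cells) and 0.43 in wild-type cells (727 cells), where the points of a cell share its UMI total.

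**Figure D1:**
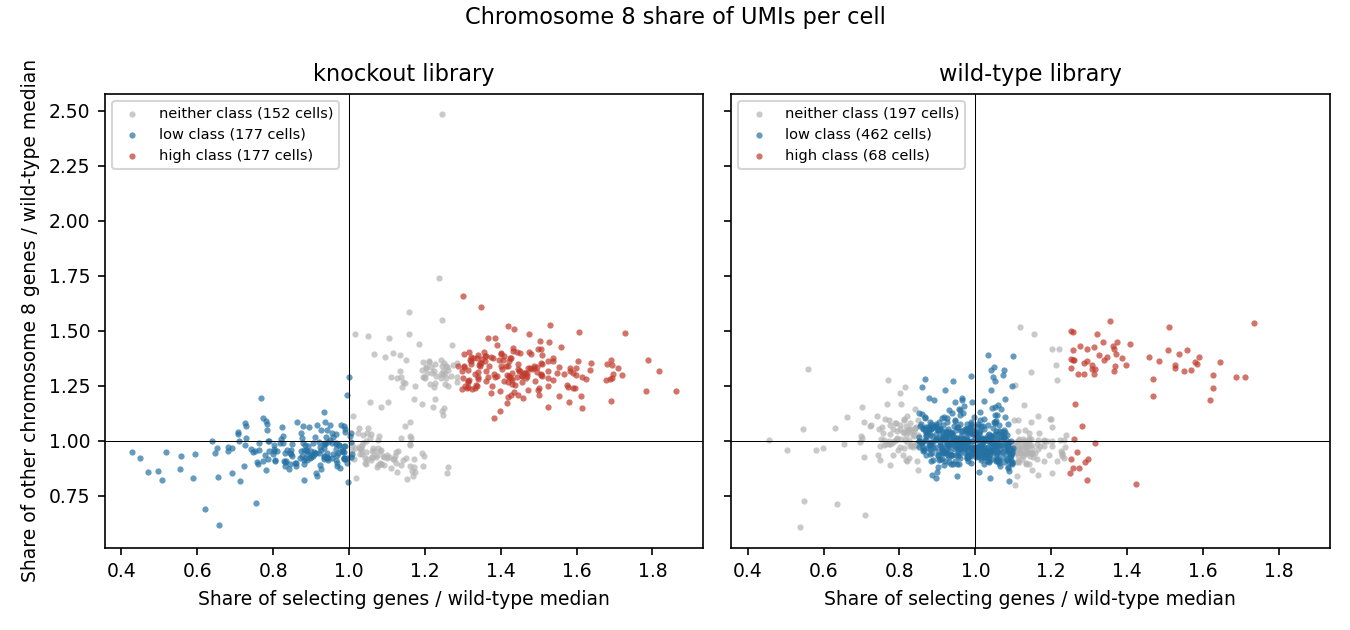
Each point is a cell. The horizontal axis is the share of the 45 selecting genes and the vertical axis the share of the other chromosome 8 genes, both divided by the wild-type median. The knockout cells form a lower and an upper cloud, with medians of 0.948 and 1.32 on the vertical axis below and above that limit of 15%, the high cells (red) lie almost wholly in the upper one, and 1 knockout cell of neither set lies at 2.48.

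The limits of the rule cut through a continuous distribution of the selecting ratio. The last knockout cell inside the high set had a ratio of 1.287 and the first outside it 1.285, and at the low limit the values were 1.007 and 1.008. In the wild type the values at the high limit were 1.251 and 1.240, and those at the upper limit of the low set 1.099 and 1.101. With a median of 248 UMIs of the selecting genes per knockout cell and 244 per wild-type cell, the counting error of a single cell is larger than these gaps.

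Taken as sums over cells, the high and low sets of both libraries carried pluripotency markers. All 10 pluripotency markers were detected in every set, with summed levels of 9893 CPM in the knockout high, 8568 in the knockout low, 12039 in the wild-type high and 12889 in the wild-type low cells. Most of each sum was Dppa5a, at 7690, 6050, 9582 and 10390.5 CPM in that order. Of the other markers only Pou5f1 was also higher in knockout high than in knockout low cells, and the rest were lower. Summed markers of primitive endoderm, the extraembryonic lineage that iPSCs can turn into, came to 65 and 81 UMIs (12.7 and 16.6 CPM) in the knockout high and low cells and to 9 and 84 UMIs (4.34 CPM in the high ones) in the wild-type high and low cells, after cells with more than 1 UMI of 5 of these genes had been left out. Fibroblast markers, which feeder cells would carry, were uneven. They summed to 72 UMIs in the knockout high cells, with Lum and Postn at 0, against 3155 UMIs (647 CPM) in the knockout low cells. The wild-type high and low cells held 19 and 190 (9.16 and 14.0 CPM). More than 2 of these UMIs were found in 15 knockout low cells, in 2 knockout high cells, and in 1 and 2 of the wild-type high and low cells. For several named genes and lists that moved when these cells were left out, the values without them are given as well.

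Depth hardly differed between the sets, while the mitochondrial share did. Median UMIs per cell were 27565 and 26161 in knockout high and low cells and 28435 and 28678.5 in the wild type, and median genes detected ranged from 4395 to 4446.5. The median mitochondrial share was 3.54% in knockout high against 5.18% in knockout low cells, and 2.79% against 3.46% in the wild type. At equal depth, and with phase genes of chromosome 8 left out, 23.2% of knockout high cells were assigned to S phase (95% interval 17.2 to 30.1%) and 15.3% of knockout low cells (10.3 to 21.4%). The intervals of the 2 overlapped, and in the wild type the shares were 19.1% and 18.0%.

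The selecting genes are listed as a description, since they chose the cells. Of the 45, 11 were below 50 CPM. Among the 34 others the median log2 ratio was 0.77 in the knockout and 0.50 in wild-type cells, and 29 and 30 were higher past the fold, with none lower. Among genes of DNA replication and chromatin, Orc6, a subunit of the origin recognition complex, had ratios of 1.27 in the knockout and 0.55 in wild-type cells. The chromatin protein gene Hmgb2 stood at 1.12 and 0.64 and Cdt1, a replication licensing factor, at 0.68 and 0.54. Among genes of protein synthesis and turnover, Psmd7, a subunit of the proteasome cap, had 1.28 and 0.83, and Farsa, the alpha subunit of phenylalanyl-tRNA synthetase, 1.18 and 0.53. The translation repressor gene Eif4ebp1 had 0.89 and 0.50. Of mitochondrial genes, the outer membrane channel gene Vdac3 had 1.36 and 0.64, Got2, an aminotransferase, 0.86 and 0.62, and Cox4i1, a subunit of cytochrome c oxidase, 0.48 and 0.44. The smallest knockout ratio among the 34 was that of Cnot1, the scaffold of the CCR4-NOT deadenylase, at 0.08, with 0.59 in the wild type. The wild-type ratios were smallest for Usp10, a deubiquitinase gene, at 0.19. When cells were instead chosen by the other genes of chromosome 8, the selecting genes took no part in the choice, and their medians were 0.60 and 0.38. Both ratios are taken over the same UMI total of a cell, so this readout is not fully independent.

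Genes of chromosome 8 that took no part in the choice were higher almost throughout. The median log2 ratio of the 118 was 0.66 in the knockout (1.58-fold) and 0.48 in wild-type cells (1.39-fold). They were past the fold upward in 102 cases (86.4%) in the knockout and in 101 (85.6%) in wild-type cells, 93 of them in both, and none was past it downward. Over the 2134 genes of other chromosomes the corresponding shares were 27.3% and 7.08%. Across the 118 genes the ratios of the libraries had a correlation of 0.64, where genes are not independent replicates.

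Prmt7 (ENSMUSG00000060098), an arginine methyltransferase gene, was measured at 93.8 CPM in knockout high and 45.1 in knockout low cells, and at 96.4 and 53.2 in the wild type. Its log2 ratios were 1.05 (interval 0.82 to 1.29) and 0.86 (0.62 to 1.09), so each interval lay above 0. Dctd, which encodes a deaminase of pyrimidine metabolism, was at 87.2 and 44.9 CPM in knockout high and low cells and at 75.2 and 40.2 in the wild type, with ratios of 0.96 and 0.91. Dhodh, an enzyme of pyrimidine synthesis in mitochondria, had 0.81 and 0.88. The ribosome assembly gene Mak16 had 0.80 and 0.71, the exosome-associated Mphosph6 0.94 and 0.83, and the adaptor gene Gipc1 1.09 and 0.71. These were the 6 genes with the highest ratios by the smaller of the 2 libraries.

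The 6 genes of chromosome 8 with the lowest ratios were of 2 kinds. Gm10073, Rps26-ps1, Gm8730 and Rps18-ps3 are annotated copies of, or look-alikes of, ribosomal protein genes, and their ratios lay between -0.17 and 0.09 in the knockout and between -0.18 and -0.08 in the wild type. Reads from such copies and from their parent genes on other chromosomes are hard to tell apart, so these values are uncertain. The other 2 were Klf2 and Mt1. Klf2, a factor of naive pluripotency, was at 526 and 480 CPM in knockout high and low cells and at 594 and 549 in the wild type, so its ratios were 0.13 (0.05 to 0.21) and 0.11 (0.02 to 0.20), well under the median of the chromosome. Mt1, a metal-binding metallothionein gene, had ratios of 0.15 and -0.22, but 1.69 and 1.14 when cells were chosen by the other genes of the chromosome, a sum to which Mt1 itself contributes.

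The difference ran along the whole chromosome. The 118 genes spanned 3.62 to 126.97 Mb of chromosome 8 (build GRCm38). In 7 windows of 20 Mb, with 3 pseudogenes left out, medians lay between 0.31 and 0.81 in the knockout and between 0.39 and 0.57 in the wild type. The lowest in both libraries was the first window, from 0 to 20 Mb, which held 7 genes. No other chromosome came near. The medians of the 19 others, X included, lay between 0.01 and 0.19 in the knockout and between -0.02 and 0.08 in the wild type.

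**Figure D2:**
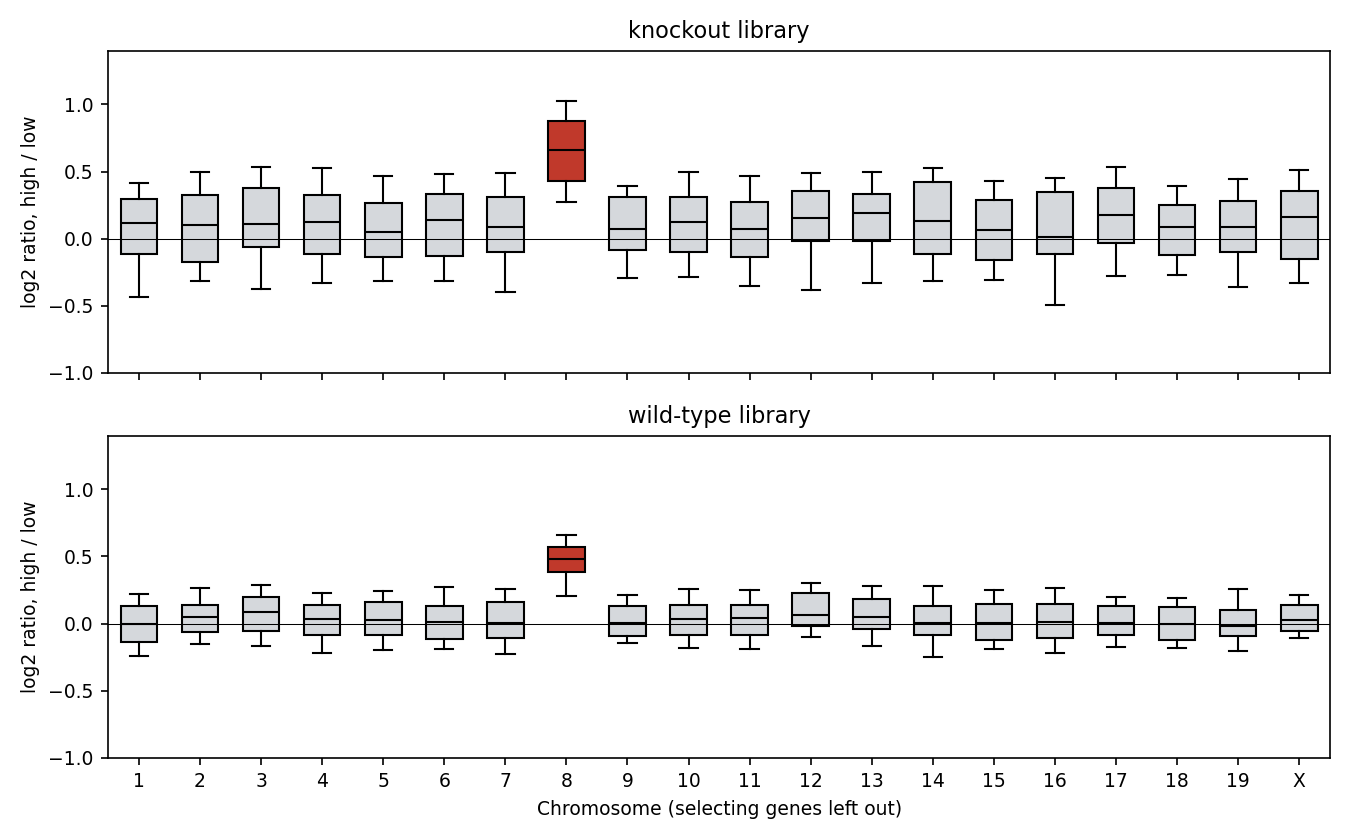
Log2 ratios of high over low cells by chromosome, without the selecting genes, in the knockout library (top) and the wild-type library (bottom). Boxes reach from the 25th to the 75th percentile of the genes, lines in them the median, and whiskers reach from the 10th to the 90th percentile. Chromosome 8 (red) has medians of 0.66 and 0.48, above those of all other chromosomes shown.

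On other chromosomes the number of genes higher past the fold in the knockout changed with the limits that chose the cells. The number lower hardly did. Those limits differed between the libraries. The median selecting ratio was 1.44 in knockout high and 0.882 in knockout low cells, against 1.34 and 0.985 in the wild type. In the knockout 583 of 2134 genes were higher past the fold (27.3%) and 274 lower (12.8%). In the wild type 151 were higher (7.08%) and 93 lower (4.36%). In both libraries, which share no cells, 99 genes were higher (4.64%) and 41 lower (1.92%). The 99 were 17% of the genes higher in the knockout and 65.6% of those higher in the wild type, and the 41 were 15% and 44.1% of the lower ones. With the wild-type limits used in the knockout as well, 263 genes were higher and 272 lower there. The wild type then had 151 higher and 92 lower, and both libraries together 54 and 41. With the first limits only 12 genes were past the fold in opposite directions, 6 each way. Across the 2134 genes the ratios of the libraries had a correlation of 0.47.

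These counts depended on how totals were scaled and on which genes chose the cells. The median of all genes off chromosome 8 was 0.11 in the knockout and 0.02 in wild-type cells. It moved to -0.04 and -0.04 under median-of-ratios scaling and to 0.25 and -0.03 under TMM factors. The share of calls that were upward was 68.0% in the knockout and 61.9% in wild-type cells, against 38.6% and 33.6% under median of ratios, 86.4% and 40.1% under TMM, and 72.2% and 72.2% when chromosome 8 was left out of the totals. With cells chosen by the other genes of chromosome 8, 165 genes were higher and 258 lower in the knockout, 24 and 111 in wild-type cells, and 7 and 42 in both. Of the 99 genes higher in both libraries 4 were again so, and of the 41 lower ones 17. Those 4 were Id1, Tcf15, Rpp25l and Gm11808.

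Id1 and Tcf15 were thus higher in high cells of both libraries under either choice of cells. Id1 (ENSMUSG00000042745, chromosome 2, 152736251 to 152737410, plus strand), whose protein blocks basic helix-loop-helix factors and which responds to bone morphogenetic protein (BMP), was at 137 CPM in knockout high and 83.1 in knockout low cells. In the wild type it was at 49.7 and 22.4 CPM. The log2 ratios were 0.72 (0.54 to 0.90) and 1.16 (0.81 to 1.48), and 0.63 and 0.79 with cells chosen by the other genes. Among cells outside G2M the knockout ratio of Id1 was 0.13, and without cells of more than 2 fibroblast-marker UMIs it was 1.06. Tcf15 (ENSMUSG00000068079, chromosome 2, 152143561 to 152149097, plus strand), a basic helix-loop-helix factor of cells that prepare to leave pluripotency, was at 650 and 417 CPM in knockout high and low cells and at 480 and 325 in the wild type. Its ratios were 0.64 (0.56 to 0.72) and 0.56 (0.46 to 0.66), and 0.43 and 0.57 under the other choice. Rpp25l, related to a subunit of the tRNA-processing ribonuclease P, had ratios of 0.66 and 0.60, and 0.49 and 0.33 under the other choice.

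The remaining 9 of the 12 highest genes in both libraries were Sfn, Slc2a1, Tmem97, Wdr18, Adk, Ppa1, Cdc20, Rpf2 and Tagln2. The glucose transporter gene Slc2a1 was at 223 and 128 CPM in knockout high and low cells and at 246 and 170 in the wild type, with ratios of 0.80 and 0.54. Ppa1, an inorganic pyrophosphatase, was at 329 and 173 CPM and at 310 and 218, with ratios of 0.93 and 0.50. In the wild type these differences rested on the choice of cells. With cells chosen by the other genes of chromosome 8 the wild-type ratio of Slc2a1 was 0.07, that of Ppa1 0.04, that of Cdc20, an activator of the anaphase-promoting complex, -0.02, and none of the 9 was past the fold there. The knockout ratios under that choice stayed above 0 for all 9, from 0.20 for Cdc20 to 0.68 for the adenosine kinase gene Adk.

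**Figure D3:**
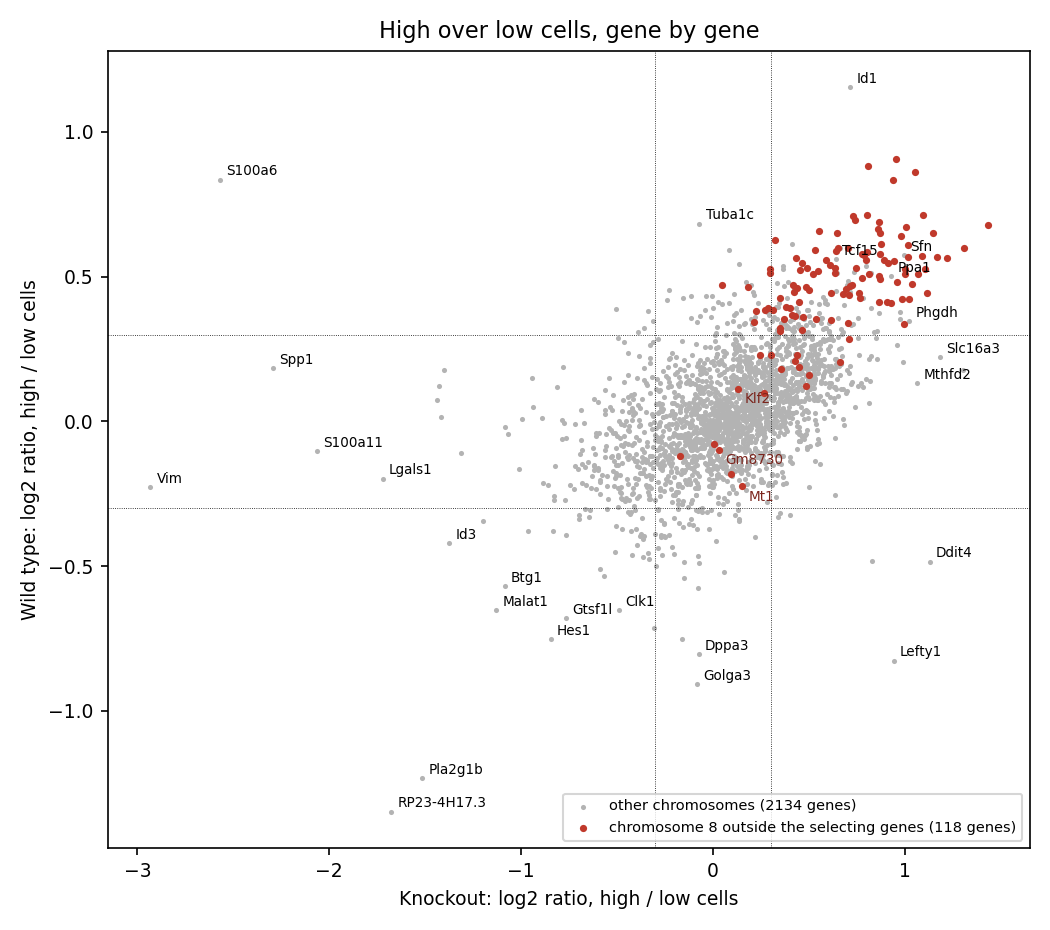
Log2 ratio of high over low cells of each gene in the knockout (horizontal) against the wild type (vertical), for genes of other chromosomes (grey) and of chromosome 8 outside the selecting genes (red). Dotted lines mark 0.3 and -0.3. Most red points lie in the upper right, while Klf2, Mt1 and Gm8730 lie near the centre, and Pla2g1b and RP23-4H17.3 lie at the lower left.

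Of the genes lower in high cells a larger share was found under either choice. The medians of all genes off chromosome 8 were also lower under the other choice, at 0.01 in the knockout and -0.05 in wild-type cells. Calls upward and downward were thus not equally easy to keep. Pla2g1b (ENSMUSG00000029522, chromosome 5, 115466262 to 115474722, plus strand), which encodes a secreted phospholipase A2, was at 98.0 CPM in knockout high against 280.1 in knockout low cells, and at 108 against 253 in the wild type. The high cells of the libraries thus lay close together, as did the low cells, and the high and low sums did not overlap. The log2 ratios were -1.52 (-1.67 to -1.37) and -1.23 (-1.44 to -1.04), and -1.69 and -1.29 under the other choice. RP23-4H17.3 (ENSMUSG00000108483, chromosome 7, 127434422 to 127439392, plus strand) was at 64.1 and 205 CPM in knockout high and low cells and at 12.5 and 32.5 in the wild type, with ratios of -1.68 and -1.35, and -2.62 and -1.49 under the other choice.

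Hes1, a repressor and target of Notch signalling, was at 68.6 and 123 CPM in knockout high and low cells and at 28.0 and 47.5 in the wild type. Its ratios were -0.85 (-1.04 to -0.65) and -0.75 (-1.18 to -0.37), and the knockout value was -0.43 without cells holding more than 2 fibroblast-marker UMIs. Malat1, an abundant RNA retained in the nucleus, was at 6524 and 14266 CPM in knockout high and low cells and at 3731 and 5866 in the wild type, with ratios of -1.13 and -0.65. The other lower genes in both libraries included Gtsf1l, related to a germ cell factor (-0.77 and -0.68), Ucp2, an inner mitochondrial membrane carrier (-0.51 and -0.45), Cltc, the clathrin heavy chain (-0.57 and -0.54), and Btg1, an inhibitor of proliferation (-1.09 and -0.57). Of the 12 lowest genes 8 were past the fold in both libraries under the other choice as well. Besides the genes named, the 17 that were lower under either choice included Etv5, a factor downstream of fibroblast growth factor, the junction gene Jam2, the actin regulator Enah, the desaturase gene Scd2, and the corepressor genes Ncor1 and Rcor2.

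**Figure D4:**
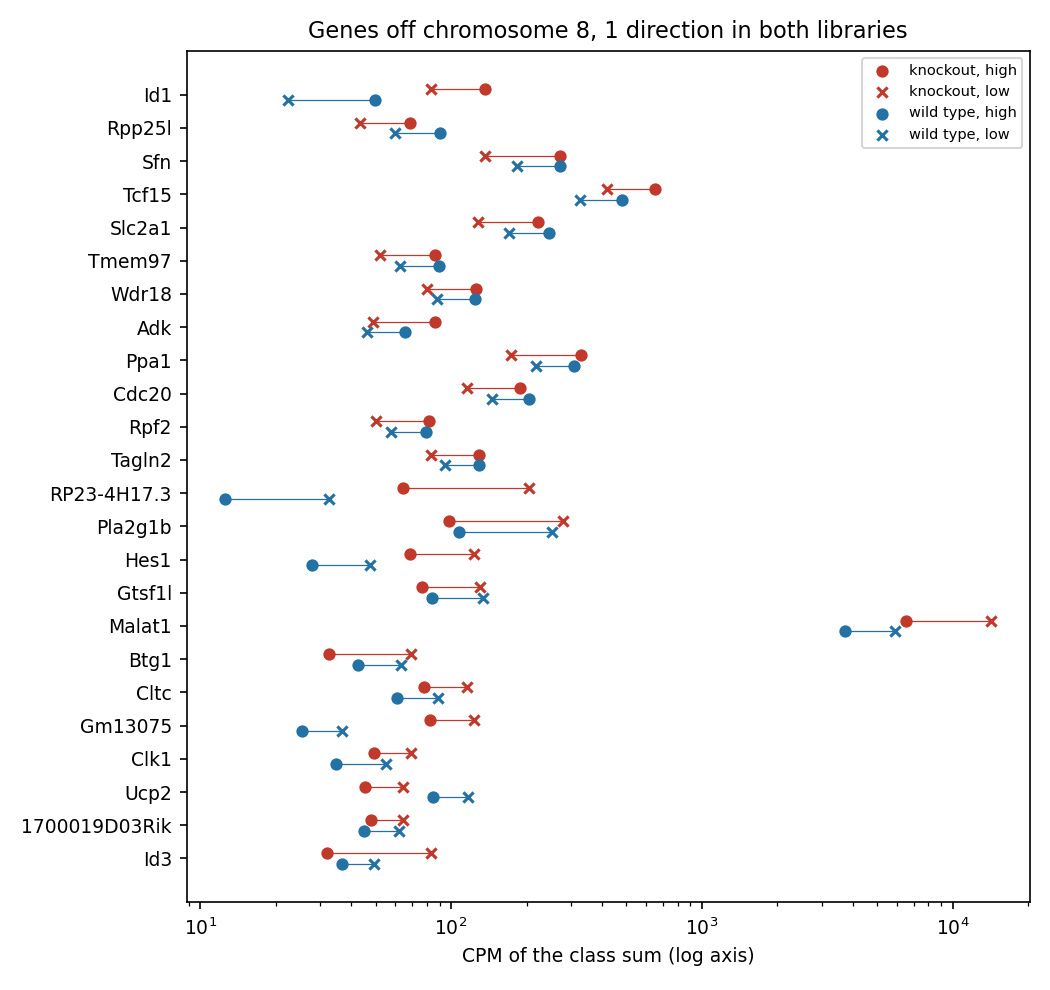
CPM (log axis) of the 12 highest and 12 lowest genes off chromosome 8 in high cells (circles) and low cells (crosses) of the knockout (red) and the wild type (blue). For Pla2g1b the circles lie at 98.0 and 108 and the crosses at 280.1 and 253, and for Id1 the circles at 137 and 49.7 lie above their own crosses at 83.1 and 22.4.

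The largest differences in the knockout alone were of 2 kinds. Among the 5 highest genes were the lactate transporter gene Slc16a3 (1.18), the stress-induced mTOR inhibitor Ddit4 (1.13), and the serine and one-carbon enzymes Mthfd2 (1.07) and Phgdh (1.02). In the wild type these 4 stood at 0.22, -0.48, 0.13 and 0.35. Under the other choice of cells the knockout ratios were 1.15, 1.06, 0.93 and 0.65. The 5 lowest were Vim (-2.93), S100a6 (-2.57), Spp1 (-2.29), S100a11 (-2.06) and Lgals1 (-1.72), genes that fibroblasts express strongly. Without cells holding more than 2 fibroblast-marker UMIs these stood at -0.90, 0.14, -0.49, 0.12 and 0.48.

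In the wild type alone the 5 highest genes were Id1, S100a6 (0.84), the tubulin gene Tuba1c (0.68), the splicing gene Smu1 (0.61) and Rpp25l. With the other choice S100a6, Tuba1c and Smu1 were at -0.23, -0.02 and 0.09. The 5 lowest were RP23-4H17.3, Pla2g1b, the Golgi protein gene Golga3 (-0.91), the Nodal inhibitor Lefty1 (-0.83) and the germ line and naive state gene Dppa3 (-0.80). These 3 were at -0.87, -0.67 and -0.04 in the wild type under the other choice. In the knockout Golga3, Lefty1 and Dppa3 were at -0.08, 0.94 and -0.07. Lefty1 was at 78.9 and 41.0 CPM in knockout high and low cells and at 76.2 and 135 in the wild type, so the high cells of the libraries were alike and the low cells were not.

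The lists that follow are read beside the shares over all genes off chromosome 8, which were 27.3% higher and 12.8% lower in the knockout, and 7.08% and 4.36% in wild-type cells. Genes of the proteasome, the protease complex that degrades tagged proteins, were higher in most cases in the knockout. Of 30 subunit genes off chromosome 8, 25 were past the fold upward in the knockout (background 27.3%) and 10 in wild-type cells (background 7.08%), with none lower, and the medians were 0.51 and 0.25, beside 0.11 and 0.02 over all genes off chromosome 8. Psmc2, an ATPase of the cap, was at 109 and 65.4 CPM in knockout high and low cells and at 115 and 91.0 in the wild type (0.73 and 0.34). Psmd1, the smallest in the knockout, had 0.11 and 0.26. Under the other choice of cells the medians were 0.16 and -0.08 and no subunit was past the fold in either library. With the wild-type limits in the knockout and without cells of more than 2 fibroblast-marker UMIs, a setting added after seeing the data, the medians were 0.30 and 0.24, with 16 and 9 subunits higher. Psmd7 and Psmb10 lie on chromosome 8 and belong to the selecting genes.

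The list of heat shock and chaperonin genes held 20 measured members, among them the mitochondrial Hspa9, Hspd1 and Hspe1. Of these 13 were higher past the fold in the knockout and 4 in wild-type cells, with medians of 0.42 and 0.19 and none lower past it. Hsp90ab1 was at 3826 and 2573 CPM in knockout high and low cells and at 4472 and 4017 in the wild type (0.57 and 0.16), and the chaperonin subunit gene Cct7 had 0.65 and 0.36. Hsph1, a cofactor of Hsp70 proteins, had -0.22 and -0.21. Under the other choice the medians of the list were 0.09 and -0.08. Of 8 chaperone genes of the endoplasmic reticulum 1 was higher and 2 lower in the knockout and none was past the fold in the wild type. Their medians were 0.06 and 0.22, and the knockout value was -0.08 under median of ratios. Under the other choice of cells both medians were -0.19, so the wild-type value changed sign. Dnajb1 and Calr lie on chromosome 8 and belong to the selecting genes.

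Measured genes of the integrated stress response, the pathway through which Atf4 raises amino acid supply, differed in the knockout under both choices of cells. The list held 23 genes, of which 11 off chromosome 8 reached 50 CPM. The 11 include Atf4 itself, which is not a target, and Ddit4, Mthfd2 and Phgdh, named above. Of these 11 genes 10 were higher and 1 lower in the knockout (median 0.50). In the wild type 5 were higher and 2 lower (median 0.18). Members below 50 CPM were mixed. In knockout high and low cells Chac1 had 247 and 115 UMIs, Trib3 301 and 149, and Atf3 79 and 41. Atf5 had 59 and 127 and Slc7a11 7 and 90, while Cebpb, Ddit3, Sesn2, Slc7a3 and Vldlr differed less. Asns, asparagine synthetase, was at 106 and 59.7 CPM in knockout high and low cells and at 137 and 105 in the wild type (0.82 and 0.39). Psph, of serine synthesis, had 0.84 and 0.31, Atf4 itself 0.36 and -0.17, and the glutamine transporter gene Slc38a2 -0.51 and -0.04. Under the other choice the medians were 0.43, with 7 genes higher and none lower in the knockout, and 0.04, with none higher and 1 lower in the wild type. Without the fibroblast-marker cells they were 0.65 and 0.20. The list also has 2 genes on chromosome 8, Eif4ebp1 and Slc7a5, left out here. Eif4ebp1 is a selecting gene, and Slc7a5 is part of the sum used for the other choice. Under either choice the cells were thus chosen in part by a gene of this list. Of 15 aminoacyl-tRNA synthetase genes and partners 6 were higher in the knockout (background 27.3%) and 3 in wild-type cells (background 7.08%), with medians of 0.29 and 0.07. The medians under the other choice were 0.07 and -0.01. With the wild-type limits and without the fibroblast-marker cells 4 of 16 were higher in the knockout (median 0.10). Aars, Farsa and Kars lie on chromosome 8 and belong to the selecting genes.

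Glycolytic and hypoxia-responsive genes were higher in the knockout. Of 15, 10 were higher and 1 lower there (median 0.46), and 3 were higher and none lower in the wild type (median 0.11). Ldha, lactate dehydrogenase, was at 1158 and 654 CPM in knockout high and low cells and at 1388 and 1187 in the wild type (0.82 and 0.23). Aldoa, aldolase, had 0.62 and 0.02, and the neuronal-type glucose transporter gene Slc2a3 -0.41 and -0.29. The medians under the other choice were 0.23 and -0.11. Only 3 genes of cholesterol synthesis off chromosome 8 were measured, with medians of 0.41 and 0.11.

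**Figure D5:**
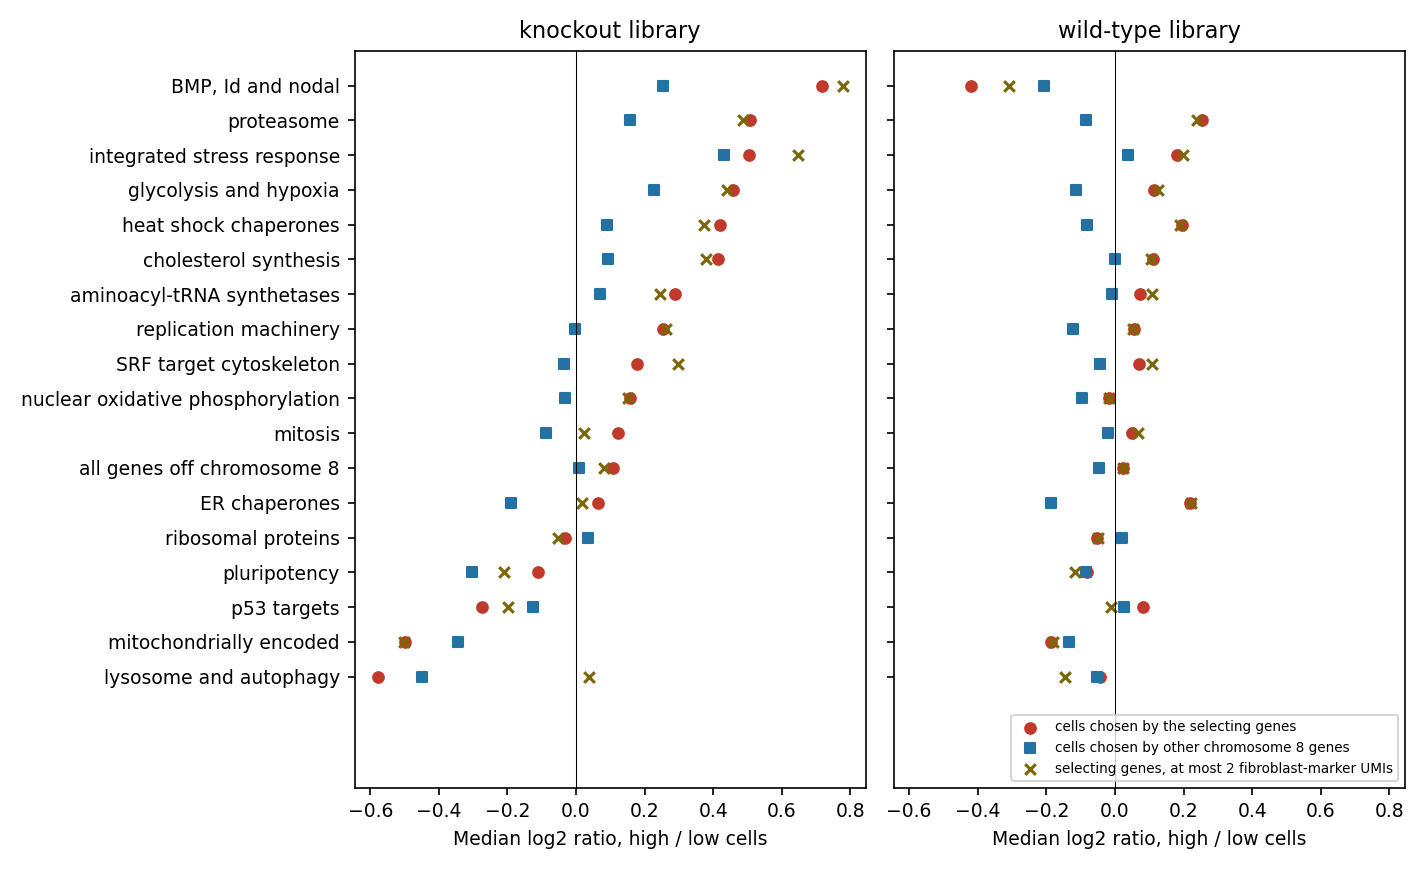
Median log2 ratio of high over low cells of each gene list, chromosome 8 genes left out, with cells chosen by the selecting genes (circles), by the other genes of chromosome 8 (squares), or by the selecting genes without cells of more than 2 fibroblast-marker UMIs (crosses). For the proteasome the circles lie at 0.51 and 0.25 and the squares at 0.16 and -0.08, while for the integrated stress response in the knockout they lie at 0.50 and 0.43.

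Of 19 replication genes off chromosome 8, 9 were higher in the knockout (background 27.3%) and 2 in wild-type cells (background 7.08%), with medians of 0.25 and 0.06, and 0.00 and -0.12 under the other choice. With the wild-type limits and without the fibroblast-marker cells 4 of 20 were higher and 1 lower in the knockout (median 0.00). The list also has 8 genes on chromosome 8, left out here. Mcm5, Orc6, Cdt1, Gins2, Gins4, Rnaseh2a and Asf1b among them are selecting genes, and Gins3 is part of the sum used for the other choice. The cells were thus chosen in part by genes of this list. Some complexes have subunits on chromosome 8 and elsewhere. They were chosen after first values had been seen, and the chromosome 8 subunits named here are selecting genes, so their ratios are a description. Mcm5, of the replicative helicase, on chromosome 8, was at 164 and 106 CPM in knockout high and low cells and at 130 and 105 in the wild type (0.62 and 0.32), and had 0.46 and 0.11 under the other choice. The other subunits Mcm2, Mcm3, Mcm4, Mcm6 and Mcm7 lay between -0.25 and 0.10 in the knockout and between -0.13 and 0.19 in the wild type. Farsa had 1.18 and 0.53, and 0.80 and 0.47 under the other choice, and Farsb, its partner subunit on chromosome 1, had 0.05 and 0.04. Rnaseh2a, the catalytic subunit of ribonuclease H2, had 1.17 and 0.59, and 0.62 and 0.30 under the other choice. Its partner Rnaseh2c on chromosome 19 had 0.25 and -0.02. Cnot1 had 0.08 and 0.59, and 0.16 and 0.47 under the other choice, and Cnot3, on chromosome 7, had -0.40 and -0.43.

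Mitotic genes showed no common direction. Of 23, 4 were higher and 5 lower in the knockout, and 5 higher and none lower in the wild type, with medians of 0.12 and 0.05, which became -0.02 and -0.01 under median of ratios. Cdk1 had 0.57 and 0.36, and Cenpf, a centromere protein gene, -0.43 and 0.09. Of 83 ribosomal protein genes off chromosome 8, 2 were higher and 4 lower in the knockout and none was past the fold in the wild type, with medians of -0.03 and -0.05. The knockout median was 0.11 under TMM.

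Genes of the mitochondrial genome were lower in the knockout high cells, which restates the lower mitochondrial share of those cells. All 12 measured were past the fold in the knockout (median -0.50) and 1 in wild-type cells (median -0.19). Under the other choice the medians were -0.34 and -0.14. Mitochondrial UMIs are part of the total in the ratio of either choice, so the 2 choices are not separate evidence here. The gene mt-Nd4, a subunit of respiratory complex I, was at 1525 and 2418 CPM in knockout high and low cells and at 1349 and 1571 in the wild type (-0.66 and -0.22). Of 47 nuclear genes of oxidative phosphorylation 14 were higher and 1 lower in the knockout (median 0.16, beside 0.11 over all genes off chromosome 8), close to the background of 27.3% in the higher count. Among wild-type cells 2 were higher and 1 lower (median -0.02). With mitochondrial and ribosomal protein UMIs left out of the ratio that chose the cells, 446 genes off chromosome 8 were higher and 302 lower in the knockout, 39 and 130 in wild-type cells, and 12 and 49 in both. Of the 12 highest genes in both libraries 4 were then past the fold in both, and of the 12 lowest all 12.

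Several factors of naive pluripotency were lower in the knockout high cells. Of 19 pluripotency genes off chromosome 8, 2 were higher and 7 lower in the knockout, and 3 higher and 2 lower in the wild type. The medians were -0.11 and -0.08, and the knockout median was 0.03 under TMM. Nanog was at 47.4 and 84.1 CPM in knockout high and low cells and at 90.2 and 100.5 in the wild type (-0.83 and -0.15). Klf4 had -0.75 and -0.22, Tfcp2l1 -0.70 and -0.32, Esrrb -0.63 and -0.19 and Sox2 -0.40 and -0.20, while Utf1, a chromatin-bound stem cell factor, had 0.42 and 0.33. Pou5f1, the core factor Oct4, had 0.18 and -0.08. Under the other choice 10 of 19 were lower and 1 higher in the knockout (median -0.30), with Nanog at -1.07 and -0.38. Of the list of primed and early differentiation genes only Dnmt3a and Dnmt3b passed the minimum, with ratios of 0.21 and 0.01 in the knockout and 0.34 and -0.41 in wild-type cells.

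Of 5 genes of BMP and Nodal signalling, 3 were higher and 2 lower in the knockout and 1 higher and 3 lower in the wild type. Id3, like Id1 an inhibitor of basic helix-loop-helix factors, went opposite to Id1, at 31.9 and 83.1 CPM in knockout high and low cells and 36.6 and 49.3 in the wild type (-1.38 and -0.42). Without the fibroblast-marker cells its knockout ratio was -0.59, and under the other choice of cells its wild-type ratio was 0.03. Lefty2 had 0.83 and -0.48, and the inhibitory Smad7 -0.60 and -0.16.

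Targets of p53 were lower in the knockout high cells in part. Of 7 genes of the list, 3 were lower and 1 higher in the knockout (median -0.27) and none was past the fold in the wild type (median 0.08). The higher gene was Trp53 (0.32), which encodes p53 itself and is not a target. Cdkn1a, an inhibitor of the cell cycle, was at 83.1 and 165 CPM in knockout high and low cells and at 73.8 and 73.6 in the wild type (-0.99 and 0.01), and Ccng1 had -0.94 and 0.05. Without the fibroblast-marker cells the knockout ratios were -0.37 for Cdkn1a and -0.69 for Ccng1. Of 10 lysosome and autophagy genes 6 were lower and 1 higher in the knockout (median -0.58), and 3 lower and 1 higher in the wild type (median -0.04). Without the fibroblast-marker cells the knockout median was 0.04, with 1 of 9 genes lower.

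The difference between the genotypes in SRF target genes was present in cells of either chromosome 8 share. Over 11 cytoskeletal targets off chromosome 8 the knockout over wild-type ratio had a median log2 of -0.23 in high cells, with 5 lower and none higher past the fold (background 10.6% lower and 12.7% higher). In low cells it was -0.38, with 6 lower and 2 higher (background 25.6% and 17.5%). Actb, beta-actin, was at 257 CPM in knockout high and 927 in wild-type high cells, and at 337 and 748 in the low cells, ratios of -1.85 and -1.15. Actg1 had -2.13 and -1.89. Fos, an immediate early target, was at 9.40 and 118 CPM in the high cells and at 25.6 and 112 in the low cells, ratios of -3.63 and -2.12. The low cells of the knockout held 15 fibroblast-marker cells, and without cells of this kind the genotype ratios in low cells were -1.67 for Actb, -2.49 for Actg1 and -4.13 for Fos. The knockout ratios of high over low cells moved from -0.39 to 0.13 for Actb, from -0.05 to 0.56 for Actg1 and from -1.44 to 0.58 for Fos when those cells were left out.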

How the data were processed

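Single-cell RNA was measured in 1 knockout and 1 wild-type library. The deposited values are counts of UMIs per gene and cell, whole numbers that the authors had not normalised, per the file headers. Cell Ranger 2.0.0, Seurat 3.1.1 and mm10 are named in the submitters' processing notes, which give no settings, so how reads shared by similar genes were counted is not given in the sources used here.

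Of 27998 genes 27645 (98.7%) were placed by identifier with GENCODE M21 (GRCm38). Usable cells had at least 1000 genes, 1 to 10% mitochondrial UMIs, at least 15000 UMIs and at most 1 UMI over Gata6, Gata4, Dab2, Cubn and Lrp2. These limits removed, in order, 315 knockout and 50 wild-type cells by mitochondrial share, 121 and 162 by UMIs, and 126 and 13 by the endoderm genes. Doublet calling (Scrublet, through scanpy 1.11.5, 0.8% expected per 1000 cells) marked 3 knockout and 5 wild-type cells, which were kept, and others may have gone unmarked.

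UMIs were summed per set and scaled to 1000000, and ratios were taken with 0.5 counts added to each sum (numpy 2.4.6, scipy 1.17.1). Ratio intervals are exact and conditional on the total, and those of shares are Clopper-Pearson. For phases each cell was thinned to 15000 UMIs. TMM factors came from edgeR 4.0.16, which was used for scaling only. The calculation was tested on simulated data.

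The selecting genes, the gene lists and the tests were chosen with earlier results of these data known. Named genes are, off chromosome 8, the 12 highest and 12 lowest by the smaller of the 2 libraries' ratios and the 5 highest and lowest of each library, the 6 highest and lowest of chromosome 8, and members of the lists. Of these, 1 gene is not reported here. The complexes and the genes kept under both choices of cells were named after their values were seen. In all, 20 other settings were tried, 2 of them added after seeing the data.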

Additional observations from a re-analysis of the deposited data

Results flagged for a closer look

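Some genes differed between high and low cells in opposite directions in the knockout and the wild type, and with 1 library per genotype none of these differences was tested. Ddit4 had a log2 ratio of 1.13 in the knockout and -0.48 in wild-type cells, and 1.06 and -0.21 with cells chosen by the other genes of chromosome 8. Lefty1 had 0.94 and -0.83, and 0.995 and -0.67 under that choice. S100a6 had -2.57 and 0.84, but 0.14 and 0.43 without cells holding more than 2 fibroblast-marker UMIs. The median of the 5 genes of BMP and Nodal signalling was 0.72 in the knockout and -0.42 in wild-type cells. These are the values of Id1 in the knockout and Id3 in the wild type. Id1, Id3 and Smad7 each had the same direction in both libraries, and only Lefty1 and Lefty2 changed direction.

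Raised shares of chromosome 8 were also found in cells that the comparisons left out, here over all its genes and with a limit of 1.2 times the wild-type median. Among usable cells 46.8% in the knockout library passed this limit, against 10.3% in the other. Of the cells left out only for their primitive endoderm UMIs, 78 of 126 in the knockout (61.9%, interval 52.8 to 70.4%) passed it, against 1 of 13 in the wild type. Of cells with under 1% mitochondrial UMIs and at least 5000 UMIs, 82 of 227 in the knockout (36.1%) passed it, against 0 of 17 in the wild type, and the exact interval of the latter reaches 19.5%. Of cells with 5000 to 15000 UMIs, 30 of 93 in the knockout (32.3%) passed it, against 20 of 155 in the wild type (12.9%). Of cells above 10% mitochondrial UMIs and with at least 5000 UMIs, 4 of 65 in the knockout (6.15%) passed it, against 1 of 32 in the wild type (3.13%), and their median ratios were 0.854 and 0.866. These cells had medians of 7203.5 to 26537 UMIs, so their ratios are of unequal precision.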

How the results depend on the processing

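No paired analysis was possible because there is 1 library of each genotype. With no replicate, sets of cells from 1 library and 68 wild-type high cells, wild-type differences are the least certain. Of the recomputed main values 147 stayed within 1.5 times (counts) or 0.1 (log2 medians), and the cause was not tested for the 49 others unless the setting itself tests other genes or cells.

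Under median of ratios the chromosome 8 median of the knockout was 0.512, and counts off chromosome 8 were 295 higher and 469 lower in the knockout, 74 and 146 in wild-type cells, and 30 and 95 in both. Under TMM they were 0.802, 941 and 148 in the knockout and 91 higher in the wild type, and the SRF cytoskeleton median in low cells was -0.575. With genes from 20 CPM the chromosome 8 median was 0.528, counts were 929 and 876, 403 and 366, and 187 and 184, the cytoskeleton medians were -0.465 (high) and -0.126 (low), and the knockout medians of cholesterol synthesis and of BMP and Nodal genes were -0.0034 and -0.164. With genes from 100 CPM counts were 342 and 100, 61 and 34, and 48 and 14, and the cytoskeleton median in high cells was -0.124.

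With the wild-type limits used in the knockout the chromosome 8 median was 0.555, 263 genes were higher in the knockout and 54 in both, and knockout values were 0.0112 for the lysosome list, 0.0856 for S100a6, 0.135 for S100a11 and 0.377 for Lgals1. With at most 2 fibroblast-marker UMIs these 4 were 0.039, 0.136, 0.124 and 0.477. With both changes, a setting added after seeing the data, they were 0.00353, 0.0123, 0.0087 and 0.389, the chromosome 8 median was 0.556, and 269 genes were higher in the knockout and 53 in both. In G2M cells the lysosome list, S100a6 and Lgals1 were at 0.0156, 0.0566 and 0.449. Outside G2M 371 genes were higher and 190 lower in the wild type, 197 and 63 in both, and the cytoskeleton median in low cells was -0.0917.

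With cells chosen by the other genes of chromosome 8, 165 genes were higher in the knockout, 24 in wild-type cells and 7 in both, the cytoskeleton median in low cells was -0.278, and wild-type values were -0.0129 for Tmem97, -0.0176 for Cdc20, 0.0293 for Id3, -0.227 for S100a6 and -0.0184 for Tuba1c. With mitochondrial and ribosomal protein UMIs left out of the ratio 39 genes were higher in the wild type and 12 in both, and S100a6 was at -0.0724 in the wild type. Without cells whose other chromosome 8 genes went against their set, also added after seeing the data, 67 were higher in the wild type and 36 in both, and the cytoskeleton median in low cells was -0.271, against -0.237 with cells from 7500 UMIs.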
